A study of Homo sapiens with 12 samples.

Results

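The genes described here are 38 members of the lysosome and autophagy system, including TFEB, TFE3 and MITF, the transcription factors that drive it. They were listed by name, but with earlier results of these data known. Each symbol matched 1 Ensembl identifier among the 60663 genes of the deposited count table. All 38 were among the 20714 genes with enough counts to be tested. By role, 3 encode the transcription factors, 6 autophagy proteins, 7 lysosomal membrane proteins, 6 proteases, 7 glycosidases or a sulfatase, 4 proteins of lipid handling and 5 subunits of the vacuolar proton pump. RNA was measured in RCC4, a cell line of clear cell renal carcinoma, in 12 libraries of ribosomal RNA-depleted total RNA. The VHL-negative cells carry the line's loss of VHL, the tumour suppressor that sends hypoxia-inducible factors to degradation, and in the VHL-positive cells VHL was put back into the same line. Both were cultured with geneticin, a selection antibiotic, and each received DMSO, the solvent control, or 5 µM JQ1, an inhibitor of BET bromodomain proteins that the labels call a MYC inhibitor. Each of the 4 groups had n = 3 libraries. The labels do not give the promoter of the VHL construct, how many clones a line holds, how long JQ1 was applied or whether replicates were separate cultures, so that p-values may measure technical spread only.

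Lysosomes are acid compartments in which hydrolases break down proteins, sugars and lipids, and autophagy delivers the cell's own material to them. TFEB and its relatives TFE3 and MITF (the MiT/TFE family) bind an E-box, the letters CACGTG, in the promoters of many lysosomal and autophagy genes. When nutrients are ample, the kinase complex mTORC1 on the lysosome surface phosphorylates these factors and holds them in the cytoplasm, so their activity is not read from their RNA alone. Fusions of TFE3 or TFEB define a class of renal carcinoma, and MITF is known from melanocytes and melanoma.

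The promoter windows of the members are shown first, because the E-box is the feature the lysosomal genes are known to share. RefSeq windows (GRCh38.p14, from 250 bases before to 50 after a transcript start) were found for 28 of the 38 members, as 43 windows. CACGTG, which reads the same on both strands, stood in the windows of 9 members (ATP6V0D1, CD63, CLN3, CTSA, CTSD, GAA, LAMP1, MCOLN1 and NEU1), or 10 of 43 windows, against 7.26% of all 35116 windows. The longer TCACGTGA, which contains it, stood in 7 of the 43 windows, those of 6 members, against 0.98% of all windows. The longest, GTCACGTGAC, the palindrome of the CLEAR element known as the TFEB site, stood in 2 of the 43 windows, those of GAA and MCOLN1, against 0.353% of all windows. LAMP1 is printed over the whole 250 bases before its start, because its window held 6 copies, and it was the only 1 of the 35116 windows with at least 6. Of these, 5 lie in the printed stretch, and the sixth spans the start and is cut off by its end. For the other 8 genes, 30 bases around at least 1 copy are given, and capitals mark CACGTG.
LAMP1 (chr13:113296989-113297238, plus strand): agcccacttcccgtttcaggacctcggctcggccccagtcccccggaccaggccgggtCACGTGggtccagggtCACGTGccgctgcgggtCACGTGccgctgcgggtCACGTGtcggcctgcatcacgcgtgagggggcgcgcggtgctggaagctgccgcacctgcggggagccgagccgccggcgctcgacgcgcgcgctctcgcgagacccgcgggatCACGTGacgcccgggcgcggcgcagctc
GAA (chr17:80101493-80101522, plus strand): gggaggccgcgtCACGTGacccaccgcggc
GAA (chr17:80101538-80101567, plus strand): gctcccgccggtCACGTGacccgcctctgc
MCOLN1 (chr19:7522571-7522600, plus strand): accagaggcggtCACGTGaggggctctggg
MCOLN1 (chr19:7522598-7522627, plus strand): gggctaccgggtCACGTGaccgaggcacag
CTSA (chr20:45891298-45891327, plus strand): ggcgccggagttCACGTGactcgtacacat
NEU1 (chr6:31862930-31862959, minus strand): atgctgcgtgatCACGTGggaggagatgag
ATP6V0D1 (chr16:67481199-67481228, minus strand): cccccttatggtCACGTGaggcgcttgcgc
CTSD (chr11:1763957-1763986, minus strand): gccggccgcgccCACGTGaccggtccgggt
CD63 (chr12:55729172-55729201, minus strand): ccgggtaggggcCACGTGgccctggccggg
CLN3 (chr16:28492087-28492116, minus strand): aaaacctctgagCACGTGatgggggaacac
The GAA copies lie 76 to 71 and 31 to 26 bases before the start, and those of MCOLN1 41 to 36 and 14 to 9 bases before it. The NEU1 copy is farther out, 126 to 121 bases before the start, and does not extend to TCACGTGA. CLN3 holds another copy, not printed, that does extend to TCACGTGA. A match describes the letters of the window only and does not tell which protein binds there. Binding was not measured. Only CACGTG and its longer forms were searched for, so a window without CACGTG may hold other sites.

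Levels below are CPM, a gene's count relative to its library's total scaled by edgeR's TMM method. They are given in replicate order, DMSO before JQ1, and means carry SD. Changes are on the log2 scale and come from the quasi-likelihood test of edgeR, with p adjusted by Benjamini-Hochberg over 20714 genes and a threshold of 0.05. Levels of different genes are compared per kilobase of exon (RPKM). On that scale PSAP, which encodes the precursor of the saposins, stood highest under DMSO, at 265 ± 15.6 RPKM in VHL-negative and 392 ± 132 RPKM in VHL-positive cells. CTSD and CD63 followed in both lines, at 82.1 and 79.8 RPKM in VHL-negative cells and 134 and 109.9 RPKM in VHL-positive cells. Of the factors, TFE3 (27.5 ± 5.67 RPKM) and MITF (16.7 ± 4.33 RPKM) were far above TFEB (1.42 ± 0.224 RPKM) in VHL-negative cells under DMSO. In VHL-positive cells the order was MITF (15 RPKM), TFE3 (11.7 RPKM) and TFEB (1.16 RPKM), and MITF and TFE3 differed there by little more than their SDs of 1.96 and 2.59 RPKM. CLN3 was the lowest member, at 0.177 and 0.196 RPKM.

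The libraries held 15452949 to 32502310 counts, the fewest in replicate 2 of the JQ1-treated cells without VHL. VHL RNA was 24.9 to 35.2 CPM in the 6 VHL-negative and 64.6 to 221 CPM in the 6 VHL-positive libraries, which matches the labels. BRD2, a BET gene, rose with JQ1 in both lines (log2 1.44 and log2 1.05). Mitochondrial RNA took 9.9 to 25.3% of counts, and the nuclear RNAs NEAT1 and MALAT1 took at most 0.838% under DMSO and 1.22 to 4.01% under JQ1. They were highest in that same replicate 2. The part of these shares in the results below was not tested. The 8 renal carcinoma markers summed to 2142 to 2675 CPM, although CA9, a target of hypoxia-inducible factors, was at most 0.946 CPM in VHL-positive cells against 83.5 ± 12.3 CPM in VHL-negative cells under DMSO. VIM alone took 612 to 1785 CPM of the sum. CDH16 and CDH6 were lower in VHL-negative than in VHL-positive cells under DMSO, with means of 11.8 against 145 CPM and 84.5 against 488 CPM. Markers of other cells were low: 4 endothelial genes summed to at most 0.95 CPM, 3 fibroblast genes to at most 0.444 CPM, 6 leukocyte genes to 1.3 to 5.09 CPM and 4 melanocyte genes to 1 to 3.36 CPM, with PTPRC and TYR at or near 0. In bulk libraries fewer cells of a type and less RNA per cell cannot be told apart.

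Most of the called members rose with JQ1 in VHL-positive cells. There 18 of the 38 members rose, 4 fell and 16 did not pass, against 15.3% of all tested genes that rose and 16.5% that fell (31.8% in either direction). The members' median change was log2 0.48, and that of all genes log2 -0.03. The 38 genes took 0.603, 0.464 and 0.602% of all counts under DMSO and 0.74, 0.712 and 0.722% under JQ1, with every treated library above the controls. The rises included NEU1, SQSTM1, ASAH1, ARSA and ATP6V1A, and the falls were TFEB, MITF, NPC1 and CLN3. All 3 treated libraries lay above all 3 controls for 24 members and below them for 7, against 24.2% and 24% of all genes (48.2% in either direction). Scaled by total counts alone, the median of all genes moved by log2 -0.11 and the split of all calls from 48.1% to 34.1% higher, with 14 members higher and 5 lower. Without replicate 1 or replicate 3 of the JQ1 libraries 14 members passed, and without replicate 3 of the JQ1 libraries in both lines 7 passed, 6 of them higher. The shares of all genes called in these smaller fits are not given here, so whether calls dropped alike over all genes is not shown. The calls of ARSA, ASAH1, ATP6V1A, MAN2B1, NEU1, SQSTM1 and TFEB passed in all 18 fits that varied the processing or left out libraries.

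In VHL-negative cells rises and falls were equal in number. JQ1 gave 4 rises (SQSTM1, MAP1LC3B, ULK1 and NEU1), 4 falls (TFEB, UVRAG, CTSD and CTSZ) and 30 members that did not pass, against 14.6% of all genes that rose and 17.5% that fell (32.1% in either direction). The median was log2 -0.09, with log2 0.03 for all genes. Treated libraries lay above all controls for 5 members and below them for 6, against 20.7% and 22.3% of all genes (43.1% in either direction). Between the lines, 3 members rose in both (SQSTM1, ULK1 and NEU1), TFEB fell in both, and 15 rose in VHL-positive cells but did not pass in VHL-negative cells. Passing in 1 line only does not show a difference between the lines. The direct test of that difference, given below, called none of the members. The share of all genes with these patterns was not counted. The share of all counts was 0.459, 0.483 and 0.493% under DMSO and 0.51, 0.415 and 0.469% under JQ1, which overlapped. The calls of SQSTM1, TFEB and ULK1 passed in all 18 fits. The count in VHL-negative cells was 5 without replicate 1 of the DMSO libraries, 13 (4 higher and 9 lower) without replicate 1 of the JQ1 libraries and 3 without replicate 3 of the JQ1 libraries. Without that DMSO library the median changed sign, to log2 0.06. How many of all genes were called in these smaller fits is not given here, so their counts have no background beside them.

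**Figure D1:**
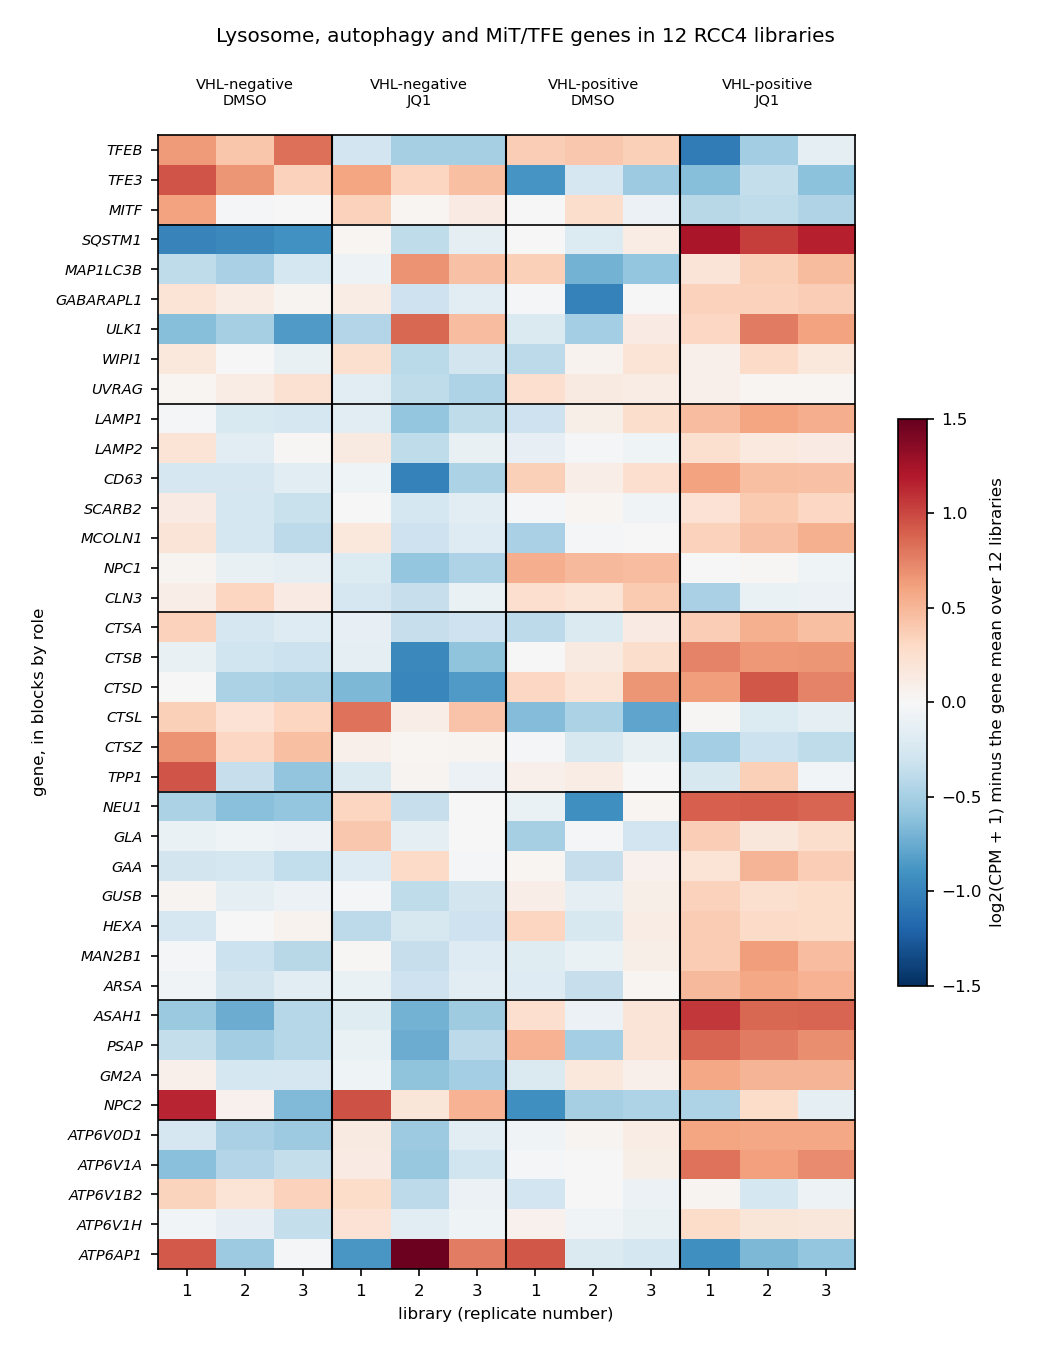
Level of each of the 38 genes (rows, in blocks by role) in each of the 12 libraries (columns, grouped), as log2(CPM + 1) minus the gene's mean over all libraries; red is higher and blue lower, and colours saturate at 1.5. The 3 JQ1-treated VHL-positive libraries are red over most blocks of membrane proteins, hydrolases, lipid handling genes and pump subunits, while TFEB is blue in all 6 JQ1-treated libraries.

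**Figure D2:**
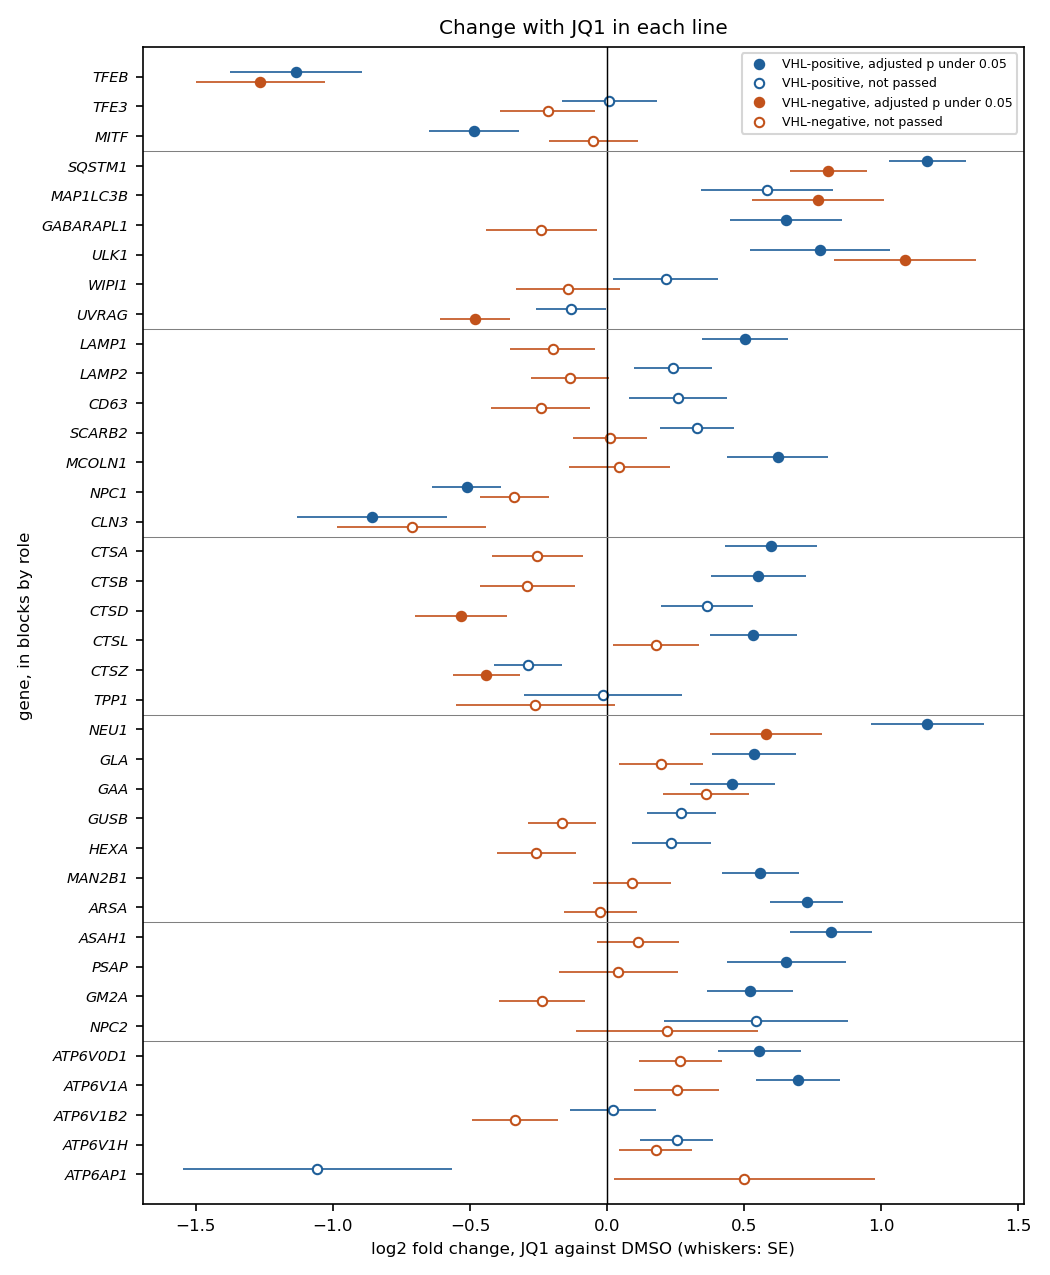
Log2 fold change with JQ1 against DMSO (x axis, whiskers SE) for each gene (y axis, in blocks by role) in VHL-positive (blue) and VHL-negative cells (orange), with filled points at an adjusted p under 0.05. In VHL-positive cells 18 filled points lie right of 0 and 4 left of it, and in VHL-negative cells 4 lie on each side.

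None of the 3 factors rose past the threshold with JQ1. TFEB, the family member most studied as regulator of lysosomal genes, measured 8.02, 6.78 and 9.3 CPM under DMSO and 3.76, 3.1 and 3.11 CPM under JQ1 in VHL-negative cells. The VHL-positive libraries held 6.5, 6.69 and 6.44 CPM and 1.82, 3.04 and 4.25 CPM. All 6 treated libraries lay below all 6 controls, although the treated VHL-positive libraries differed among themselves by more than 2-fold. TFEB fell 2.4-fold in VHL-negative (adjusted p = 0.000732, log2 -1.27, SE 0.236) and 2.19-fold in VHL-positive cells (adjusted p = 0.00202, log2 -1.13, SE 0.24). It did not pass between the lines, under DMSO (adjusted p = 0.355, log2 0.29) or under JQ1 (adjusted p = 0.63, log2 0.16).

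TFE3, the X-linked member of the family, separated the lines. It measured 142, 117 and 93.8 CPM in VHL-negative and 39.3, 61.5 and 50.04 CPM in VHL-positive cells under DMSO. Under JQ1 the values were 111, 91.9 and 101 CPM and 46.9, 57.1 and 47.6 CPM. Every VHL-negative library was above every VHL-positive one under both treatments. The difference was 2.34-fold under DMSO (adjusted p = 5.24e-05, log2 1.23, SE 0.176) and 2-fold under JQ1 (adjusted p = 0.000316, log2 1.00, SE 0.175). JQ1 itself gave TFE3 changes of log2 -0.22 (adjusted p = 0.36) in VHL-negative and log2 0.01 (adjusted p = 0.978) in VHL-positive cells.

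MITF, the member known from melanocytes, was read in every library, and the 4 melanocyte markers together reached no more than 3.36 CPM. The counts are per gene and do not tell transcript forms of MITF apart. The MITF level was 156, 101 and 103 CPM under DMSO and 131, 105 and 112 CPM under JQ1 in VHL-negative cells. VHL-positive cells held 102, 123 and 96.6 CPM and then 76.8, 78.7 and 74.9 CPM, the lowest 3 libraries of all. MITF fell there (adjusted p = 0.033, log2 -0.48, SE 0.164) and did not pass in VHL-negative cells (adjusted p = 0.842, log2 -0.05). The fall was lost without any 1 of the 3 JQ1 libraries (adjusted p from 0.087 to 0.122) or without replicate 2 of the DMSO libraries (log2 -0.36, adjusted p = 0.155). Under JQ1 MITF was higher in VHL-negative cells (adjusted p = 0.00882, log2 0.59, SE 0.164), and under DMSO the lines overlapped (adjusted p = 0.499, log2 0.16).

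**Figure D3:**
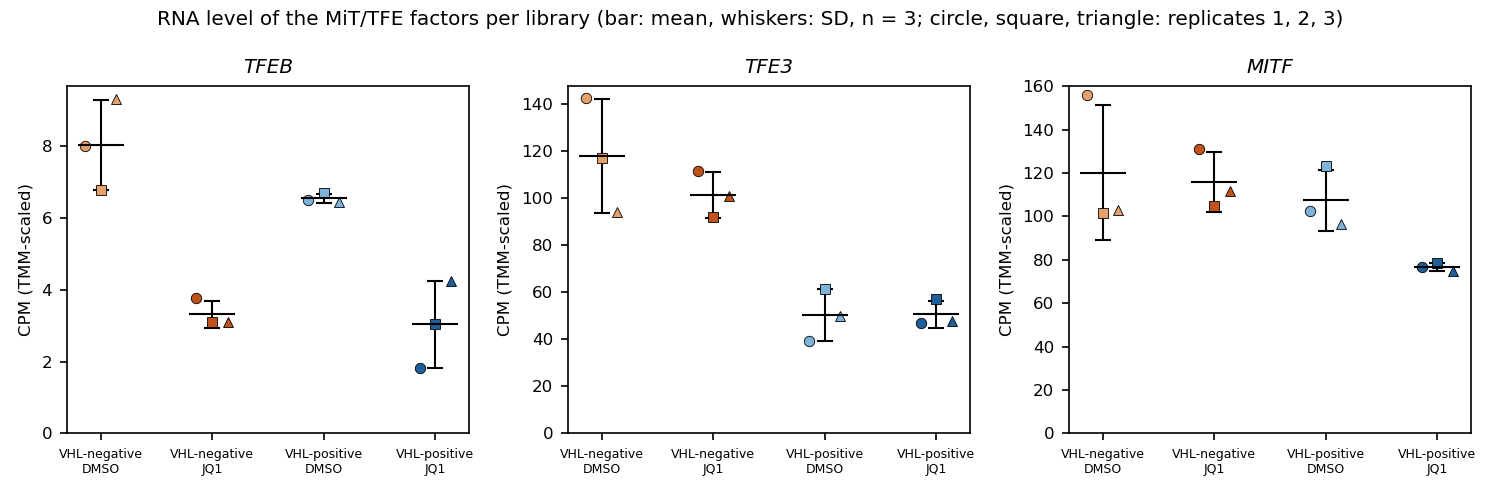
CPM of TFEB, TFE3 and MITF (y axes, from 0) in each library of the 4 groups (x axis), with bars at the mean and whiskers of SD, n = 3. TFEB is lower in both JQ1 groups, TFE3 is higher in both VHL-negative groups, and MITF is lowest in VHL-positive cells under JQ1.

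Among the 6 autophagy genes, 3 rose with JQ1 in each line. SQSTM1 encodes p62, the receptor that brings ubiquitinated cargo to the autophagosome. Its level was 192, 196 and 204 CPM under DMSO and 394, 294 and 349 CPM under JQ1 in VHL-negative cells, and 387, 334 and 417 CPM and 901, 791 and 862 CPM in VHL-positive cells. The groups were ordered without overlap except that JQ1-treated VHL-negative and untreated VHL-positive cells shared a range. SQSTM1 rose 1.75-fold (adjusted p = 0.00039, log2 0.81, SE 0.14) and 2.25-fold (adjusted p = 1.84e-05, log2 1.17, SE 0.14), and it was lower in VHL-negative than in VHL-positive cells under DMSO (log2 -0.94) and JQ1 (log2 -1.30).

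ULK1, the kinase that starts autophagy, measured 15.5, 17.2 and 13.3 CPM and under JQ1 18, 45.9 and 34.5 CPM in VHL-negative cells. Its VHL-positive libraries held 21.2, 17.2 and 27.1 CPM and 31, 43.3 and 38.2 CPM. Treated and control libraries did not overlap in either line, and the treated VHL-negative libraries spread widest, with replicate 2 highest. ULK1 rose in both lines (adjusted p = 0.0046, log2 1.09, SE 0.26 in VHL-negative, adjusted p = 0.0292, log2 0.78, SE 0.256 in VHL-positive cells). In VHL-positive cells the rise of ULK1 was lost without 1 of 4 libraries, replicates 1 or 2 of DMSO and replicates 2 or 3 of JQ1, and with total counts alone.

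MAP1LC3B and GABARAPL1 belong to the ubiquitin-like proteins that are coupled to the autophagosome membrane. MAP1LC3B measured 35.5, 33.1 and 38.9 CPM (DMSO) and 44.4, 75.4 and 63.7 CPM (JQ1) in VHL-negative cells, with all treated libraries above the controls, and rose (adjusted p = 0.0227, log2 0.77, SE 0.24). VHL-positive cells held 60.2, 28.1 and 30.9 CPM and 53.5, 60.1 and 65.1 CPM, where 1 control overlapped the treated libraries and the change did not pass (adjusted p = 0.0752, log2 0.58). The rise of MAP1LC3B in VHL-negative cells was lost without replicate 1 or 2 of the DMSO libraries or replicate 2 or 3 of the JQ1 libraries (adjusted p from 0.0576 to 0.0953). MAP1LC3B shares much of its sequence with MAP1LC3B2, so its counts are uncertain. GABARAPL1 rose in VHL-positive cells (adjusted p = 0.0229, log2 0.65, SE 0.205), from 37.1, 18.4 and 37.8 CPM to 48.8, 48.8 and 49.4 CPM. Its DMSO replicate 2 was low, and the call was lost without any 1 of the JQ1 libraries.

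UVRAG, a partner of Beclin 1 in the lipid kinase complex of autophagy, went the other way in VHL-negative cells. It fell there from 16.5, 17.6 and 19.1 CPM to 14.4, 12.2 and 11.5 CPM (adjusted p = 0.00893, log2 -0.48, SE 0.128), with no overlap. Without replicate 3 of the JQ1 libraries its adjusted p was 0.0706. WIPI1, which binds the autophagosome's lipid, lay between 10.2 and 17.3 CPM in all 12 libraries and passed in none of the comparisons.

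The 7 membrane proteins divided. LAMP1, a major glycoprotein of the lysosomal membrane and the gene whose promoter window is printed above, measured 212, 281 and 318 CPM under DMSO and 364, 398 and 385 CPM under JQ1 in VHL-positive cells. The VHL-negative libraries held 259, 224 and 222 CPM and 236, 176 and 202 CPM. The 3 treated VHL-positive libraries stood above the other 9. LAMP1 rose in VHL-positive cells (adjusted p = 0.0212, log2 0.50, SE 0.155), did not pass in VHL-negative cells (adjusted p = 0.351, log2 -0.20), and under JQ1 was 1.87-fold lower in VHL-negative cells (adjusted p = 0.000293, log2 -0.90). The rise of LAMP1 lost its call without replicate 1 of the DMSO libraries or without replicates 2 or 3 of the JQ1 libraries, with an adjusted p of up to 0.0984.

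MCOLN1 encodes the calcium channel through which lysosomes signal. It measured 12.3, 17.3 and 17.8 CPM and 22.7, 24.3 and 26.1 CPM in VHL-positive cells, and again the 3 treated libraries exceeded the other 9. It rose there (adjusted p = 0.0171, log2 0.62, SE 0.185). Its VHL-negative libraries, at 20.3, 14.5 and 13.2 CPM and 19.9, 14.1 and 15.4 CPM, overlapped (adjusted p = 0.878, log2 0.04). Without replicate 1 of the DMSO or replicate 3 of the JQ1 libraries the rise of MCOLN1 did not pass. LAMP2, CD63 and SCARB2, the carrier of glucocerebrosidase, had changes of log2 0.24 to 0.33 in VHL-positive cells, and none of these passed, although their treated libraries all lay above the controls.

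NPC1 and CLN3 were the membrane genes that fell. NPC1, which moves cholesterol out of the lysosome, measured 429, 411 and 402 CPM under DMSO and 295, 296 and 280.3 CPM under JQ1 in VHL-positive cells. VHL-negative cells held 302, 270.2 and 265 CPM and 253, 196 and 213 CPM. The treated libraries lay below the controls in both lines. The fall passed in VHL-positive cells (adjusted p = 0.00554, log2 -0.51, SE 0.126), and in VHL-negative cells it just missed (adjusted p = 0.0502, log2 -0.34, SE 0.126), while the authors' deposited table calls NPC1 lower there (log2 -0.37, adjusted p = 0.0106). CLN3, the membrane protein mutated in juvenile Batten disease, stayed at or below 2.17 CPM and fell in VHL-positive cells (adjusted p = 0.0246, log2 -0.86, SE 0.273). Of its annotated exon length 30.9% overlaps other genes, and its lowest library held 15 counts. Without replicate 3 of the DMSO or replicate 1 of the JQ1 libraries the fall of CLN3 did not pass.

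Proteases differed in direction as well. CTSB, a cysteine protease, measured 420.4, 462 and 504 CPM and, with JQ1, 707, 661 and 664 CPM in VHL-positive cells. Its VHL-negative libraries held 389, 341 and 336 CPM and 381, 214 and 275 CPM. The treated VHL-positive libraries were above all others, and replicate 2 of the treated VHL-negative libraries was the lowest of the 12. CTSB rose in VHL-positive cells (adjusted p = 0.0227, log2 0.55, SE 0.173) and did not pass in VHL-negative cells (adjusted p = 0.212, log2 -0.29). Its rise was lost without any 1 of the 3 JQ1 libraries or replicate 1 of the DMSO libraries (adjusted p up to 0.0767).

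CTSD, the main aspartic protease of lysosomes, had the largest gap of the 38 genes between the lines under JQ1. Its level was 319, 227 and 225 CPM (DMSO) and 198, 161 and 175 CPM (JQ1) in VHL-negative cells. VHL-positive cells held 391, 365 and 503 CPM and 488, 603 and 530.3 CPM. All VHL-negative libraries lay below all VHL-positive ones. CTSD fell in VHL-negative cells (adjusted p = 0.0239, log2 -0.53, SE 0.168) and did not pass in VHL-positive cells (adjusted p = 0.111, log2 0.36), and under JQ1 it was 3.04-fold lower in VHL-negative cells (adjusted p = 2.42e-06, log2 -1.61, SE 0.172). The call was lost without DMSO replicate 1 (log2 -0.35, adjusted p = 0.142) or replicates 2 or 3 of the JQ1 libraries, and 52.7% of the exon length of CTSD overlaps other annotated genes. For CTSA, WIPI1, SQSTM1 and MAN2B1 that share is 21.2 to 28.5%, and the rule for counting reads in such stretches is unknown here.

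CTSL, a cysteine protease of broad specificity, was higher in VHL-negative cells under DMSO (121, 109.8 and 118 against 59.5, 67.5 and 54.1 CPM, adjusted p = 0.000261, log2 0.94). It rose with JQ1 in VHL-positive cells to 94.9, 81.2 and 85.9 CPM (adjusted p = 0.0173, log2 0.53), a call that was lost without replicate 3 of the DMSO or replicate 1 of the JQ1 libraries. CTSZ, a carboxypeptidase, was higher in VHL-negative cells under both treatments (log2 0.61 and log2 0.46). CTSZ fell there from 175, 135 and 149 CPM to 115, 112 and 112 CPM (adjusted p = 0.0125, log2 -0.44), and did not pass without replicate 1 of the DMSO or replicate 3 of the JQ1 libraries. Its difference between the lines under JQ1 did not pass without replicate 1 of the VHL-positive libraries (log2 0.39, adjusted p = 0.0595). CTSA, the protease that protects NEU1 in a complex, rose in VHL-positive cells from 103, 117 and 147 CPM to 175, 196 and 185 CPM (adjusted p = 0.012, log2 0.60, SE 0.167), with an adjusted p of 0.0546 without replicate 1 of the DMSO libraries. TPP1 passed in none of the comparisons, and its VHL-negative DMSO libraries (89.3, 35.9 and 30.05 CPM) spread more than any other group of it.

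Of the 7 glycosidases and sulfatase, 5 rose with JQ1 in VHL-positive cells and 1, NEU1, in VHL-negative cells. NEU1, the lysosomal sialidase, measured 207, 117 and 227 CPM under DMSO and 412, 417 and 408 CPM under JQ1 in VHL-positive cells. VHL-negative cells held 159, 144 and 148 CPM and 277, 175 and 221 CPM. The treated VHL-positive libraries lay within 10 CPM of each other and above the other 9, while DMSO replicate 2 was low. NEU1 rose 2.25-fold in VHL-positive (adjusted p = 0.000488, log2 1.17, SE 0.206) and 1.49-fold in VHL-negative cells (adjusted p = 0.0403, log2 0.58, SE 0.204). The rise of NEU1 in VHL-negative cells passed in only 1 of the 6 fits that left out a library, with adjusted p between 0.0688 and 0.147 in the others.

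ARSA, the sulfatase that degrades sulfatides, lay between 13.7 and 17.9 CPM in 9 libraries. It measured 16.9, 14.4 and 15.6 CPM and 16.4, 14.1 and 15.6 CPM in VHL-negative cells (DMSO, then JQ1), and 15.2, 13.7 and 17.9 CPM under DMSO in VHL-positive cells. In the treated VHL-positive libraries it was 25.1, 26.8 and 25.8 CPM, above all others (adjusted p = 0.000609, log2 0.73, SE 0.132). MAN2B1, an alpha-mannosidase, rose from 59.2, 63.1 and 72.1 CPM to 88.1, 105 and 93.3 CPM in VHL-positive cells (adjusted p = 0.00666, log2 0.56, SE 0.141). GLA, the enzyme lacking in Fabry disease, and GAA, that lacking in Pompe disease, rose there as well (log2 0.54 and log2 0.46). The rise of GLA was lost without replicate 1 of the DMSO or of the JQ1 libraries. The rise of GAA was lost without replicate 2 of the DMSO or replicates 2 or 3 of the JQ1 libraries, and with total counts alone. GUSB and HEXA did not pass with JQ1 in either line, but under JQ1 both were lower in VHL-negative cells (log2 -0.52 and log2 -0.64).

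In lipid handling, 3 of 4 genes rose in VHL-positive cells. ASAH1, acid ceramidase, measured 95.1, 74.7 and 91 CPM and with JQ1 167, 146 and 146 CPM there. The VHL-negative libraries held 53.9, 47.2 and 59 CPM and 69.9, 48.4 and 54.6 CPM. Every VHL-negative library was below every VHL-positive one, and only the VHL-positive groups separated by treatment. ASAH1 rose in VHL-positive cells (adjusted p = 0.00068, log2 0.82, SE 0.15) and was lower in VHL-negative cells by 1.63-fold under DMSO and 2.65-fold under JQ1 (adjusted p = 2.79e-06, log2 -1.41, SE 0.152).

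PSAP, whose product is cut into the saposins that help enzymes reach sphingolipids, measured 1663, 813 and 1328 CPM under DMSO and 2126, 1984 and 1877 CPM under JQ1 in VHL-positive cells. Its VHL-negative libraries held 908, 807 and 863 CPM and 1078, 692 and 882 CPM. Replicate 2 of the VHL-positive controls was near the VHL-negative level, and the treated VHL-positive libraries exceeded all others. PSAP rose there (adjusted p = 0.0307, log2 0.65, SE 0.218), but the call held in only 1 of the 6 fits that left out a library, and it was lost with total counts alone. GM2A, the activator that presents GM2 ganglioside to hexosaminidase, rose from 38.8, 50.5 and 47.7 CPM to 67.7, 64.4 and 64.5 CPM (adjusted p = 0.0183, log2 0.52, SE 0.156), and its rise was lost without replicate 1 of the DMSO or of the JQ1 libraries. NPC2, which hands cholesterol to NPC1, was higher in VHL-negative cells under DMSO (184, 85.9 and 51.8 against 43.1, 58 and 59.7 CPM, adjusted p = 0.0332, log2 1.00). These groups overlapped, and without replicate 1 of the VHL-negative libraries the difference in NPC2 was log2 0.37 (adjusted p = 0.329). It also missed without any 1 of the VHL-positive libraries.

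The vacuolar proton pump (V-ATPase) acidifies the lysosome. ATP6V1A, its catalytic subunit, measured 107, 110.0 and 117 CPM and with JQ1 193, 169 and 180.0 CPM in VHL-positive cells. VHL-negative cells held 70.7, 80.5 and 85.2 CPM and 119, 73.5 and 88.8 CPM. It rose in VHL-positive cells (adjusted p = 0.00277, log2 0.70, SE 0.154), and replicate 1 of the treated VHL-negative libraries stood just above the VHL-positive controls. ATP6V0D1, a subunit of the membrane sector, rose from 78.4, 83.6 and 88.2 CPM to 123, 122 and 123 CPM (adjusted p = 0.0105, log2 0.56, SE 0.151). Both were lower in VHL-negative cells under DMSO (log2 -0.50 and log2 -0.46) and JQ1 (log2 -0.94 and log2 -0.75).

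ATP6V1B2 and ATP6V1H, other subunits of the cytosolic sector, passed in none of the comparisons. ATP6AP1, an accessory subunit, was the least even member. It measured 33.4, 11.4 and 16.9 CPM and 8.89, 49.2 and 29.9 CPM in VHL-negative cells, and 33.7, 14.7 and 14.2 CPM and 8.62, 10.4 and 11.1 CPM in VHL-positive cells (DMSO, then JQ1). It was higher in VHL-negative cells under JQ1 (adjusted p = 0.0209, log2 1.54, SE 0.494), although replicate 1 overlapped the VHL-positive libraries. Without replicate 2 of those treated VHL-negative cells the difference in ATP6AP1 was log2 0.95 (adjusted p = 0.141), and it also missed without replicates 1 or 2 of the treated VHL-positive libraries.

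**Figure D4:**
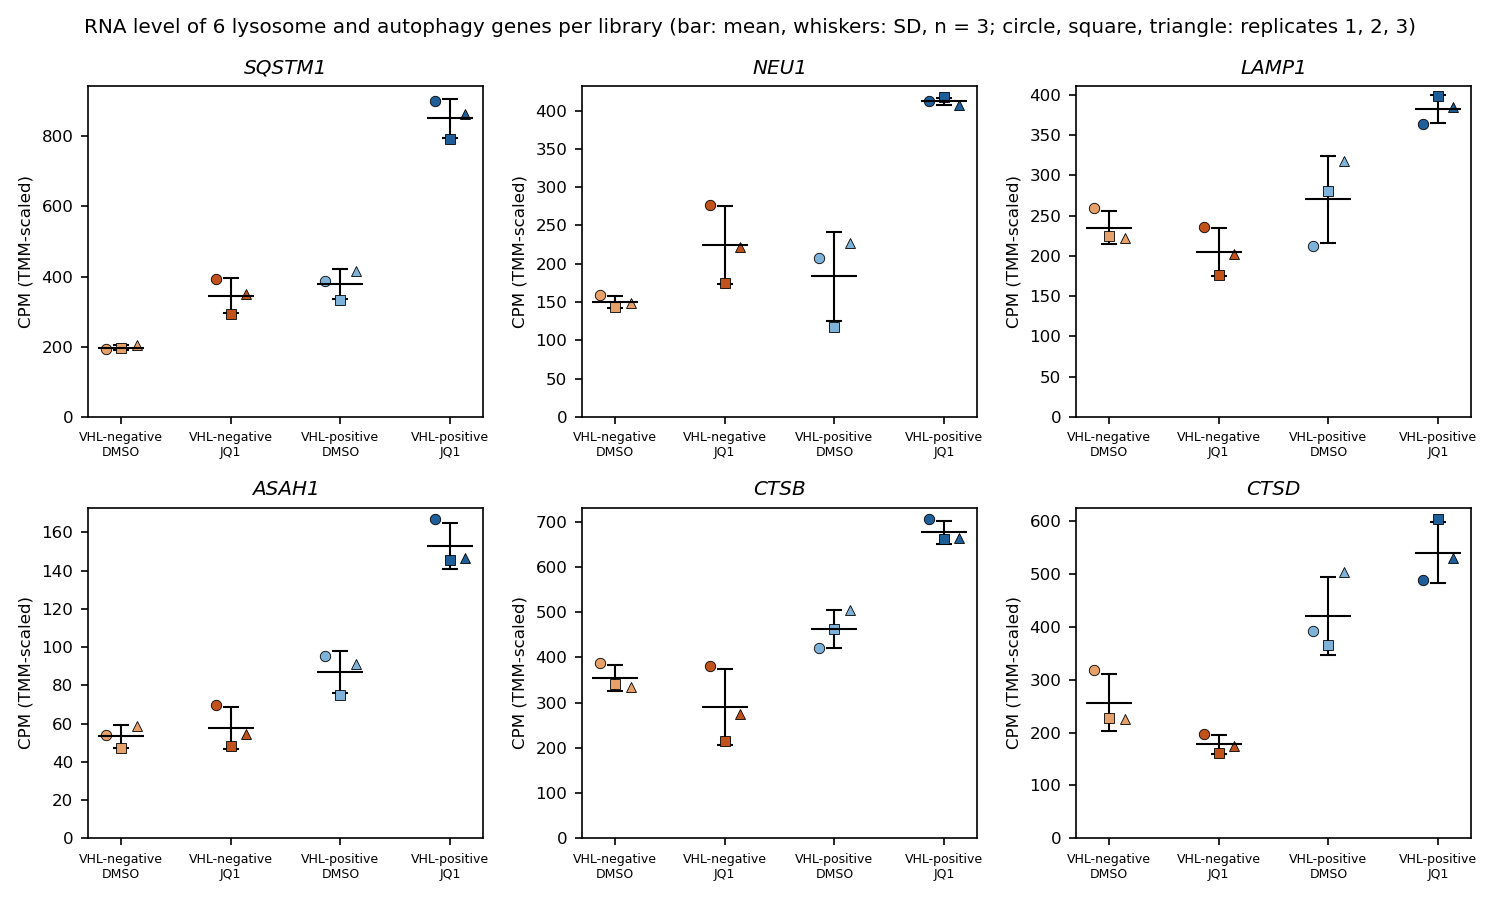
CPM of SQSTM1, NEU1, LAMP1, ASAH1, CTSB and CTSD (y axes, from 0) in each library of the 4 groups (x axis), with bars at the mean and whiskers of SD, n = 3. The JQ1-treated VHL-positive libraries lie above all others for SQSTM1, NEU1, LAMP1, ASAH1 and CTSB, and for CTSD they overlap the VHL-positive controls.

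Between the lines without drug, the share of members called was near that of all genes. Under DMSO 4 were higher in VHL-negative cells (TFE3, CTSL, CTSZ and NPC2), 6 were lower (SQSTM1, NPC1, CTSD, ASAH1, ATP6V0D1 and ATP6V1A) and 28 did not pass, against 14.8% of all genes that were higher and 15.9% that were lower (30.7% in either direction). The median was log2 -0.13, and that of all genes log2 0.00. The lower members included NPC1 (log2 -0.57), CTSD (log2 -0.71) and ASAH1 (log2 -0.70), and of the 10 members called only NPC2 overlapped between the lines. Over the whole set, 6 members lay wholly above and 8 wholly below, against 21.5% and 21.2% of all genes (42.7% in either direction). Of the 10 calls, 7 passed in all 18 fits that varied the processing or left out libraries, and those of NPC2, ATP6V0D1 and ATP6V1A did not. The call of ATP6V0D1 was lost without replicates 2 or 3 of either line's DMSO libraries, and that of ATP6V1A without replicate 1 of the VHL-negative or replicate 3 of the VHL-positive ones.

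Under JQ1 25 of the 38 members passed between the lines. In VHL-negative cells 5 members were higher (TFE3, MITF, CTSL, CTSZ and ATP6AP1), 20 were lower and 13 did not pass, against 19.7% of all genes that were higher and 21.2% that were lower (40.9% in either direction). The median was log2 -0.42, and that of all genes log2 0.03. Lower members came from every role but the transcription factors: 2 of 6 autophagy genes, 5 of 7 membrane proteins, 3 of 6 proteases, 5 of 7 glycosidases and sulfatase, 3 of 4 lipid handling genes and 2 of 5 pump subunits. CTSD (log2 -1.61), ASAH1 (log2 -1.41), SQSTM1 (log2 -1.30), CTSB (log2 -1.22) and PSAP (log2 -1.18) had the largest gaps among these, and no library of 1 line reached the other for these 5. CD63, a tetraspanin of late endosomes, was lower too (log2 -0.96), although its changes with JQ1 did not pass in either line (log2 -0.24 in VHL-negative and log2 0.26 in VHL-positive cells). All 3 VHL-negative libraries were below all VHL-positive ones for 21 members and above them for 4, against 27.2% and 25.7% of all genes (52.9% in either direction). Total counts alone moved the median of all genes by log2 0.16 and the split of all calls from 48.1% to 62.1% higher, with 6 members higher and 18 lower. Without replicate 3 of the JQ1 libraries in both lines 16 members passed, 15 of them lower, and the share of all genes called in that fit is not given here. The lower calls of MCOLN1, NPC1, SCARB2 and UVRAG were lost in 3 or more of the 6 fits that left out 1 library, while 16 of the 25 calls passed in all 18 fits.

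**Figure D5:**
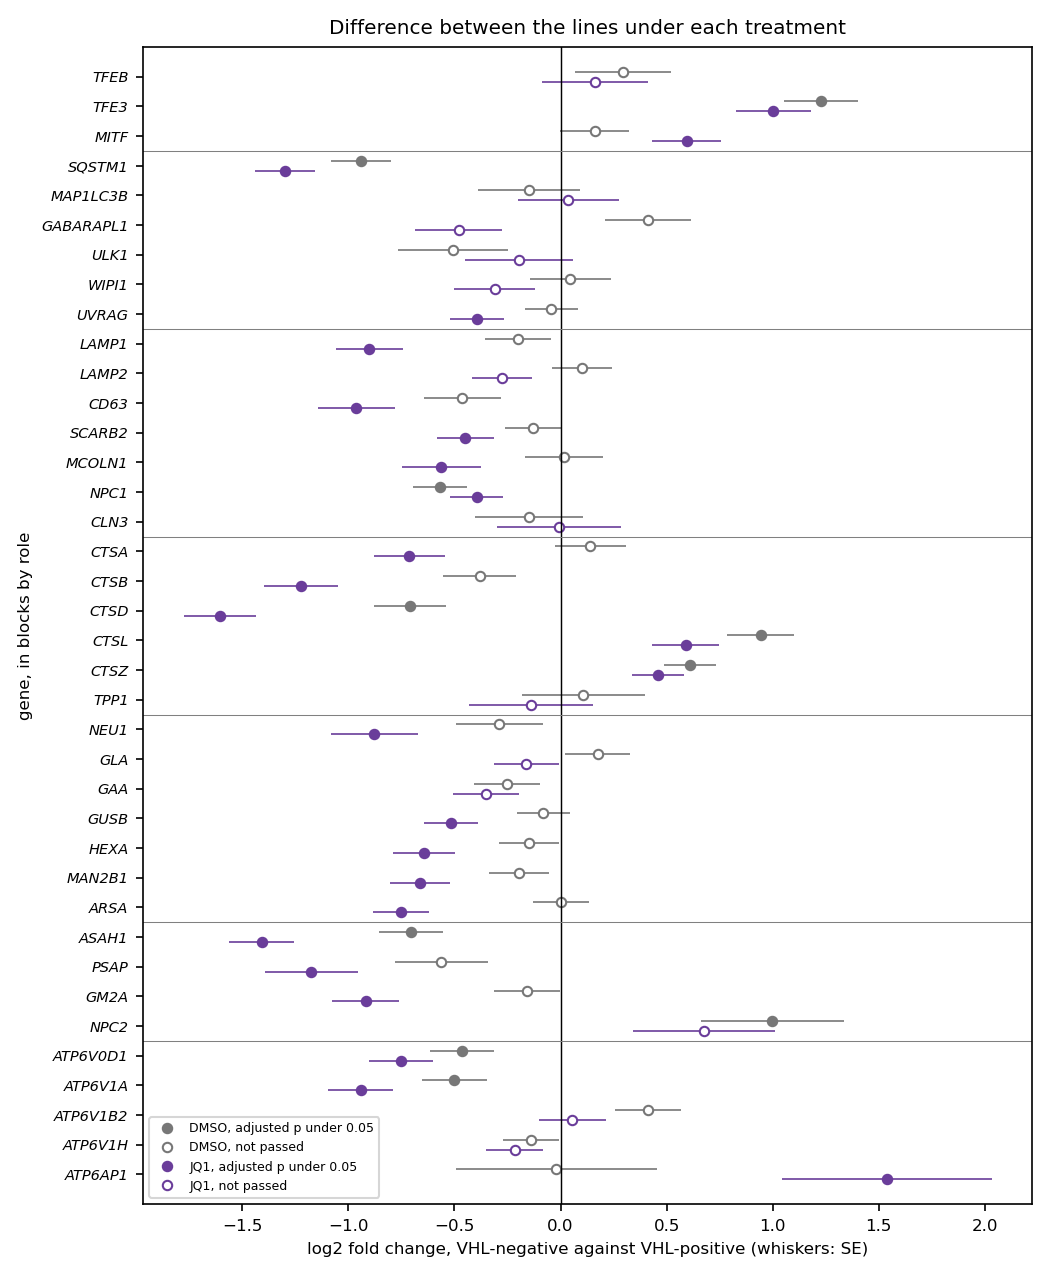
Log2 fold change of VHL-negative against VHL-positive cells (x axis, whiskers SE) for each gene (y axis, in blocks by role) under DMSO (grey) and JQ1 (purple), with filled points at an adjusted p under 0.05. Under DMSO 6 filled points lie left of 0 and 4 right, and under JQ1 20 lie left and 5 right.

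Whether JQ1 acted differently in the 2 lines was tested as the difference between its effects (VHL-negative minus VHL-positive). None of the 38 members passed, against 1.21% of all genes (0.497% higher and 0.71% lower). At an unadjusted p under 0.05 there were 13 members, against 22.5% of all genes. The difference was negative for 32 of 38 members, against 49.3% of all genes, and the median was log2 -0.36, against log2 0.01. ARSA (adjusted p = 0.0616, log2 -0.75, SE 0.187), CTSD (adjusted p = 0.0714, log2 -0.90) and CTSA (adjusted p = 0.0767, log2 -0.85) came nearest the threshold. The widest estimates were those of ATP6AP1 (adjusted p = 0.196, log2 1.56, SE 0.682) NPC2 (SE 0.471) and TPP1 (SE 0.41). The test depended on the tool and on 1 library. DESeq2 called 7 members lower (LAMP1, CTSA, CTSB, CTSD, ARSA, ASAH1 and GM2A), edgeR without a filter on low counts called 8, and 14 passed without JQ1 replicate 1 of the VHL-negative line, 13 of them lower. The shares of all genes called in these other fits are not given here. These counts therefore cannot be set against the 1.21% of the main test. For TFEB the difference was log2 -0.13 (adjusted p = 0.842), and its sign changed without replicate 3 of the JQ1-treated VHL-positive libraries (log2 0.15).

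The members with and without the E-box were set side by side. Of the 9 members with CACGTG in a window, 6 rose and 1 fell with JQ1 in VHL-positive cells. Of the 19 whose windows lacked it, 7 rose and 3 fell, and of the 10 with no window in the table, 5 rose and none fell. Among all tested genes with a window, 18.5% of the 1454 with CACGTG and 19.1% of the 10842 without it rose. Of the same genes 20.6% with it and 18.1% without it fell. LAMP1, with its 6 copies, and the GTCACGTGAC genes GAA and MCOLN1 were among those that rose, as was NEU1 with 1 copy, whereas CLN3, with 2 copies, fell. SQSTM1 and ULK1, which rose in both lines, had windows without CACGTG. In VHL-negative cells 1 of the 9 members with CACGTG rose with JQ1 and 1 fell. Of the 19 without it 3 rose and 2 fell, and of the 10 with no window none rose and 1 fell. Over all tested genes with a window there, 13.8% with CACGTG and 14.9% without it rose, and 26.4% and 21.2% fell.

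Genes of the same pathway outside the 38 were counted from 5 lists. In VHL-positive cells JQ1 raised 16 and lowered 2 of 35 other lysosomal hydrolases, raised 8 and lowered 2 of 21 other membrane and delivery proteins, raised 10 and lowered 1 of 17 other V-ATPase subunits, and raised 12 and lowered none of 33 other autophagy genes. Of all tested genes 15.3% rose and 16.5% fell there. The median changes of these lists were log2 0.41, 0.31, 0.46 and 0.31, against log2 -0.03 for all genes. Of 21 regulators of mTORC1 and TFEB, 3 rose and 3 fell, near the share of all genes. In VHL-negative cells the same lists gave 9 rises and 6 falls, 2 and 4, 2 and 1, 5 and 3, and for the regulators 1 and 4, against 14.6% and 17.5% of all genes.

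Some genes of these lists changed in the same direction in both lines. IDUA, a hydrolase that degrades heparan and dermatan sulfate, measured 10.2, 7.2 and 10.2 CPM and 20.2, 25.8 and 23.2 CPM in VHL-positive cells, and 9.75, 9.94 and 8 CPM and 19.1, 27.3 and 23 CPM in VHL-negative cells (DMSO, then JQ1). It rose in both (log2 1.32 and log2 1.32), and its difference between the lines was log2 0.00 with an SE of 0.243. NAGPA, which uncovers the mannose tag that sends hydrolases to lysosomes, fell in both, from 22.7, 19.3 and 19 CPM to 4.41, 4.77 and 4.89 CPM in VHL-negative cells (log2 -2.11) and from 27.8, 23.2 and 25.4 CPM to 10.6, 11.3 and 10.8 CPM in VHL-positive cells (log2 -1.23). VMP1, a membrane protein of autophagosome formation, and ULK2, a paralog of ULK1, rose in both lines as well (VMP1 log2 0.84 and log2 0.82, ULK2 log2 0.74 and log2 1.22, VHL-negative first). PPP3CB, a catalytic subunit of calcineurin, the phosphatase that releases TFEB to the nucleus, rose from 18.7, 21 and 21.5 CPM to 34, 38.1 and 33.6 CPM in VHL-negative cells and from 17.9, 14.6 and 16.1 CPM to 30.8, 30.9 and 31.7 CPM in VHL-positive cells. ATP6V0B, a pump subunit, rose in VHL-positive cells (log2 0.70) and had a change of log2 0.08 in VHL-negative cells, which did not pass.

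Between the lines, RRAGD differed more than any of the 38 members under DMSO. RRAGD, a Rag GTPase that recruits mTORC1 to the lysosome, measured 85.8, 57.1 and 63.1 CPM in VHL-negative and 6.94, 5.66 and 6.74 CPM in VHL-positive cells under DMSO (log2 3.41). FNIP2, a partner of folliculin, which acts on RRAGD, went the other way, at 38.9, 41.5 and 36.4 CPM against 117, 75.3 and 114 CPM (log2 -1.39). Both had fully separate libraries under both treatments. Of the 21 regulators 8 were higher and 3 lower in VHL-negative cells under DMSO, and 3 were higher and 9 lower under JQ1. Of all genes 14.8% were higher and 15.9% lower under DMSO, and 19.7% and 21.2% under JQ1. Among the other hydrolases, CTSF, a cysteine protease, measured 11.1, 9.02 and 8.72 CPM in VHL-negative but 0.183, 0 and 0.0301 CPM in VHL-positive cells. GALC, galactocerebrosidase, was the reverse, at 0, 0 and 0.0362 CPM against 6.14, 4.25 and 4.64 CPM. The 35 hydrolases gave 10 higher and 9 lower under DMSO and 4 higher and 17 lower under JQ1. Under DMSO the membrane and delivery proteins gave 4 higher and 3 lower, the pump subunits 4 and 3, and the autophagy genes 7 and 2. Under JQ1 none of the 21 membrane and delivery proteins was higher and 11 were lower, 2 of 17 pump subunits were higher and 7 lower, and 4 of 33 autophagy genes were higher and 12 lower.

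By the authors' deposited tables for the drug effect, 18 members were higher, 4 lower and 16 did not pass in VHL-positive cells, with the same call as here for all 38. In VHL-negative cells 4 were higher, 5 lower and 29 did not pass, with the same call for 37. The exception was NPC1.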

How the data were processed

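RNA from 12 RCC4 libraries in 4 groups of 3 was used. The authors deposited raw counts for 60663 Ensembl genes, and per the submitters' processing notes build GRCh38 was used with featureCounts, STAR 2.7.8, DESeq2 1.30.1 and Subread 2.0.3. Their order, the annotation, the strand setting and the treatment of multiply mapped reads are not given in the sources used here. The authors also deposited a table per line of JQ1 against DMSO, whose columns, per the file headers, are log2 fold changes with their errors, p-values and adjusted p-values, a score (the fold change over its error) and the mean of counts over size factors.

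The counts were tested with edgeR 4.0.16 in R 4.3.3 (TMM scaling, filterByExpr, quasi-likelihood test, 1 mean for each of the 4 groups, Benjamini-Hochberg over 20714 genes, threshold 0.05). The filter kept 99.9% of the counts. CPM and RPKM were computed from the counts, and exon lengths and overlaps were taken from GENCODE 29. Depth limits low genes most: CLN3 held 15 counts in its lowest library. The fit was also run on counts simulated with edgeR's own estimates of spread, so that run could not check the spread itself.

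Members, pathway lists and marker lists were chosen with earlier results of these data known. TFEB, TFE3 and MITF were named in every comparison, other members where they passed or by their levels, and of each pathway list at most 4 genes a comparison with the smallest p. A pathway gene so named in 1 comparison was also given in the others, a choice made after its values were seen. Alternatives were median-of-ratios and total-count scaling, other filters, protein-coding genes, only the groups compared, DESeq2 1.42.0, limma-voom (limma 3.58.1), a replicate block, a threshold of 0.01 and leaving out libraries. The labels do not say that a replicate number marks shared material, so the main test has no block. No sample column was left out. Some genes are not reported here.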

Additional observations from a re-analysis of the deposited data

Results flagged for a closer look

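The difference between the effects of JQ1 in the lines was looked up for the 38 members, the 5 pathway lists, VHL and BET genes. Of these, 3 genes outside the 38 passed edgeR's quasi-likelihood test of the difference itself (VHL-negative minus VHL-positive, adjusted over 20714 genes). Over all tested genes 1.21% passed, and those outside the lists are not described here. NAGPA, which uncovers the mannose tag on lysosomal hydrolases, fell in both lines and fell more in VHL-negative cells. Its difference was log2 -0.89 (SE 0.186, adjusted p = 0.0307), and its levels of 4.41, 4.77 and 4.89 CPM were the lowest of the 12 libraries. RB1CC1, a scaffold of the ULK1 complex, measured 121, 133 and 135 CPM under DMSO and 152, 118 and 119 CPM under JQ1 in VHL-negative cells, where the groups overlapped. It measured 107, 85.3 and 100.4 CPM and 189.6, 161 and 168 CPM in VHL-positive cells, where it rose. Its difference was log2 -0.82 (SE 0.192, adjusted p = 0.0481). VHL itself measured 67.3, 64.6 and 78.9 CPM under DMSO and 219.7, 196 and 221 CPM under JQ1 in VHL-positive cells and rose there (log2 1.59). It measured 24.9, 28.2 and 26.2 CPM and 35.2, 32.4 and 30.5 CPM in VHL-negative cells and did not pass (log2 0.31). Its difference was log2 -1.29 (SE 0.173, adjusted p = 0.00161). The counts do not separate transcripts of the introduced VHL from those of the cell's own gene, and the part of the higher VHL RNA in the members' changes in VHL-positive cells was not tested. None of the 38 members was among the 250 genes that passed this test.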

How the results depend on the processing

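Of the alternatives other than leaving out 1 library, those that moved a count of members by more than 1.5 times were these. At an adjusted p under 0.01, 4 of 8 members passed for JQ1 in VHL-negative and 8 of 22 in VHL-positive cells. Without replicate 3 of the JQ1 libraries in both lines the counts were 3 and 7, and 16 between the lines under JQ1. For the difference between the JQ1 effects, 8 passed with no filter on low counts and 7 by DESeq2, against 0. Fits that left out 1 library gave 3 to 13 members for JQ1 in VHL-negative cells, 14 to 20 for JQ1 in VHL-positive cells, 7 to 10 between the lines under DMSO, 20 to 29 under JQ1 and 0 to 14 for the difference. The shares of all genes called in the alternative fits are not given here. The members' medians in the fits that left out 1 library were log2 -0.18 to 0.057, 0.36 to 0.50, -0.19 to -0.08, -0.56 to -0.40 and -0.55 to -0.26, in the same order. Members whose sign turned under an alternative had not passed in the main test, and the cause was not tested. Among them TPP1 with JQ1 in VHL-negative cells ranged from log2 -0.56 to 0.38 and ATP6AP1 between the lines under DMSO from -0.55 to 0.51. The factors, named in every comparison, gave these values. MITF with JQ1 in VHL-negative cells was log2 0.038 with protein-coding genes only and -0.18 to 0.18 with 1 library left out. TFE3 with JQ1 in VHL-positive cells was log2 -0.10 with total counts alone, -0.010 with at least 1 CPM in 3 libraries, -0.031 with protein-coding genes only, -0.014 with only the 2 groups compared and -0.14 to 0.20 with 1 library left out. MITF between the lines under DMSO was log2 -0.069 to 0.28, and TFEB under JQ1 -0.13 to 0.45. The TFEB difference was log2 0.20 without replicate 3 of the JQ1 libraries in both lines and -0.42 to 0.15 with 1 library left out. With the replicate block, 9, 22, 10, 26 and 0 members passed in the 5 tests. Deviations of same-numbered libraries from their group means correlated between -0.374 and 0.441, and 5 of 12 libraries were nearest to their own number. For replicates 1 and 2 the correlations were 0.289 and 0.441 between the VHL-negative groups and 0.370 and 0.271 between the JQ1 groups. Between the DMSO groups they were -0.374, -0.114 and -0.063. These values do not settle whether a number marks shared material. Leaving out the mitochondrial genome's genes, chosen after seeing the data, gave 8, 22, 10, 25 and 0 members in the 5 tests. The 75 changes of single members followed were mostly those that passed in the main test, so few could pass newly. Over all settings 164 of their values missed the threshold they passed in the main test and 3 passed newly. Another 13 changed sign and 1190 kept direction and call. Most members that had not passed were not followed, and some passed elsewhere. NPC1 with JQ1 in VHL-negative cells was called lower in 8 of 18 fits.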

Other observations

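CTSK and CTSV, cathepsins outside the 38, rose with JQ1 in both lines. CTSK, known from bone-resorbing osteoclasts, rose from 1.2, 1.45 and 1.34 CPM to 2.7, 4.53 and 3.81 CPM with JQ1 in VHL-negative cells (adjusted p = 0.000638, log2 1.45, SE 0.266). The VHL-positive libraries held 3.62, 1.77 and 2.8 CPM and then 5.71, 6.24 and 5.8 CPM (adjusted p = 0.00278, log2 1.11, SE 0.246). CTSV, a cysteine protease related to CTSL, rose from 5.63, 6.98 and 7.17 CPM to 14.5, 12 and 13.1 CPM in VHL-negative cells and from 4.82, 3.15 and 4.28 CPM to 9.75, 8.02 and 7.86 CPM in VHL-positive cells. For both genes treated and control libraries did not overlap in either line. ATP6V0A4, the pump subunit of acid-secreting kidney cells, fell in both lines (log2 -1.32 and log2 -1.64) and was higher in VHL-negative cells, at 5.82, 5.33 and 4.56 CPM against 0.694, 1.38 and 1.35 CPM under DMSO. CTSC, which activates serine proteases of immune cells, was lower in VHL-negative cells under DMSO, at 144, 132 and 141 CPM against 358, 291 and 341 CPM, and its changes with JQ1 did not pass in either line. GPNMB, a glycoprotein gene known as a target of MITF, was at most 0.629 CPM in all 12 libraries.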
